A study of Mus musculus with 12 samples.

Results

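The comparison described here is the first H3K27me3 ChIP-seq experiment of the study, in which immortalized mouse embryonic fibroblasts (iMEFs) with Ezh2 were set against cells without it. Its members are 4 of the 12 samples of the series, taken by their labels: 2 libraries of C2 iMEFs Ezh2 WT/WT (hereafter WT, replicates 1 and 2) and 2 of C2 iMEFs Ezh2 -/- (hereafter KO, replicates 1 and 2). Active Motif 39155 was the antibody, reads were 75-bp single reads from a SOLiD instrument, and each library is represented by one list of peaks. The 6 peak lists of the second experiment, made with another antibody and platform, were used only as a separate readout of the same positions. By their labels they are 2 of C2 iMEFs Ezh2 WT/WT, 2 of Ezh2 -/- and 1 each of an Ezh1 and an Ezh2 pre-rescue condition. In the paper's rescue experiment Ezh1 or Ezh2 was stably expressed before the endogenous Ezh2 was deleted. The methods describe 1 clone of c-Myc transformed iMEFs of the genotype Ezh2 flox/Δ;ROSA26-CreERT2, a ubiquitous Cre activated by 4-hydroxytamoxifen (OHT), in which both groups would carry c-Myc, the Cre and, before OHT, a single intact Ezh2 allele. The labels name the groups WT/WT and -/-, do not say whether C2 is that clone and do not give the treatment of each sample. The labels give no statement that replicates were separate cultures, so the spread between them may be technical.

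Polycomb repressive complex 2 (PRC2) places the H3K27me3 mark through its catalytic subunit Ezh2 or the less active Ezh1, together with Eed and Suz12. The mark is found over silent genes, typically at CpG-rich promoters of developmental transcription factors and in broad domains over genes of other lineages, and is depleted from the nucleosome-free start site and from transcribed genes. In fibroblasts it is known for genes of other lineages, such as neurons and blood.

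Overlapping peaks of both WT lists were joined to a WT region. It was called lost where neither KO list had a peak in it, kept where both had one and partly kept where 1 had one. A KO region was defined likewise from both KO lists and called gained where neither WT list had a peak. On the 19 autosomes, 43255 of 45953 WT regions were lost, 1088 were kept and 1610 were partly kept, and 14024 of 15676 KO regions were gained. Promoters were the 2500 bp on either side of the start of each of 21418 autosomal protein-coding genes. They were called lost, kept or partly kept by the same rule from the peaks in this window alone. A promoter can therefore differ in class from the wider region in which it lies.

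The classes are illustrated by 200 bases from single promoters, written 5′ to 3′ on the strand of the gene, with CpG dinucleotides in capitals. These windows lie at different distances from the gene start, so their CpG counts do not compare the classes. Over whole promoter sets the median ratio of observed to expected CpG was 0.519 for lost and 0.587 for kept promoters. It was 0.670 for promoters with peaks in both KO lists and in neither WT list. At lost promoters the bases are those around the middle of the stretch under both WT lists, here the start of Hoxb13 (chr11:96055530-96055729, plus strand, mm9), a homeobox gene of the posterior body axis. The stretch holds 13 CpGs.
Hoxb13: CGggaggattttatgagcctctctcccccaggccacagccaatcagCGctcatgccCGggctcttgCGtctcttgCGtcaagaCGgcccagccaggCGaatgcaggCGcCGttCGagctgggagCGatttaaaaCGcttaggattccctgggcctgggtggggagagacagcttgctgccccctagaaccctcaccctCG
At kept promoters they are the middle of the stretch under both KO lists, for the homeobox genes Lhx1 (chr11:84339994-84340193, minus strand), Nkx2-3 (chr19:43687831-43688030, plus strand) and Hoxa9 (chr6:52182208-52182407, minus strand), which hold 6, 9 and 4 CpGs. The middles of these windows lie at -1171, 1116 and -1220 bp from the gene start (negative values upstream).
Lhx1: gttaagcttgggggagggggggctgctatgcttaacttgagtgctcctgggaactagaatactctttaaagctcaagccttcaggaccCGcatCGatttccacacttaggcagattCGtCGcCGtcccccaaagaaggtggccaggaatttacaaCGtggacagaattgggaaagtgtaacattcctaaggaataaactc
Nkx2-3: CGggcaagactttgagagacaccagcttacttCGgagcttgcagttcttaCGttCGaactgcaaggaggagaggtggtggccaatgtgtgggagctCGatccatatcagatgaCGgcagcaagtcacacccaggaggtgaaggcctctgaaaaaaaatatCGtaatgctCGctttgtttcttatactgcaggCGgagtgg
Hoxa9: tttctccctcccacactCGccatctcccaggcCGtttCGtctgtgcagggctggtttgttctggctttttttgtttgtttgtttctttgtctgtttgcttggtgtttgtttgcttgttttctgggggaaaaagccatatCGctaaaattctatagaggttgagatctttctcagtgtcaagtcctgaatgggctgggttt
At promoters with peaks in both KO lists and in neither WT list the same rule gave sequence inside the genes Rpl3 (chr15:79912397-79912596, minus strand), Rps12 (chr10:23505496-23505695, minus strand) and Rpl23 (chr11:97642101-97642300, minus strand), which encode ribosomal proteins, with 0, 3 and 3 CpGs, and the start of the zinc finger gene Zfp873 (chr10:81521062-81521261, plus strand), with 2.
Rpl3: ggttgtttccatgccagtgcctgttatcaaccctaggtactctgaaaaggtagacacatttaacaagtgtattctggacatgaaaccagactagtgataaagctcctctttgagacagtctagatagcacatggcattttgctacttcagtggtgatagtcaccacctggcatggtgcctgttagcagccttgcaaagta
Rps12: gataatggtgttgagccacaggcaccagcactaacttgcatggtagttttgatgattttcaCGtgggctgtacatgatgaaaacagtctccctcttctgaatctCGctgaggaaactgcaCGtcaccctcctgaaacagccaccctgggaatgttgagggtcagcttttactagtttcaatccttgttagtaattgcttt
Rpl23: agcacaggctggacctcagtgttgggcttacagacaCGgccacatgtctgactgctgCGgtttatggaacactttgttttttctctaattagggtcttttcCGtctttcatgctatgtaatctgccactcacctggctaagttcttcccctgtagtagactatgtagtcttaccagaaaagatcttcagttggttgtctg
Zfp873: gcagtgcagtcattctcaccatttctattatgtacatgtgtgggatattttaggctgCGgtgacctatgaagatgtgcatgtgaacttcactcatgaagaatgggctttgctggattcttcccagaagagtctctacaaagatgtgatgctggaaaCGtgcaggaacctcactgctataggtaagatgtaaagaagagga

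The first question was how much of the mark remained called without Ezh2. The WT peaks (replicates 1 and 2 in this order throughout) covered 140 and 174 Mb of the autosomes, and the KO peaks 24.3 and 56.6 Mb. Both WT libraries lay above both KO libraries, by more than the spread within either genotype (157 ± 24.7 Mb against 40.4 ± 22.9 Mb, SD, n = 2; p = 0.33 in a two-sided exact permutation test, which 2 against 2 libraries cannot go below). The KO thus covered 25.8% of the WT length, a share that was 15.5% without KO replicate 2 and 36.1% without KO replicate 1. Depth cannot be read from the lists, which hold positions without score, height or reads, and coverage here is therefore the extent of called peaks and no amount of the mark.

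The genotypes differed most, in proportion, in wide peaks. Peaks under 250 bp numbered 8748 and 7862 in WT and 6796 and 8692 in KO, and the KO replicate 2 count lay within the WT range. From 5 to 10 kb there were 4183 and 5649 peaks in WT against 90 and 1025 in KO, and at 20 kb or more 260 and 591 against 3 and 33. Peaks of at least 5 kb held 38.0% and 49.0% of the covered bases in WT, 3.26% in KO replicate 1 and 18.9% in KO replicate 2. The median width was 820 and 941 bp in WT and 509 and 598 bp in KO (same exact test, p = 0.33), so the genotypes did not overlap, and the 2 KO libraries differed from each other most in wide peaks.

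**Figure D1:**
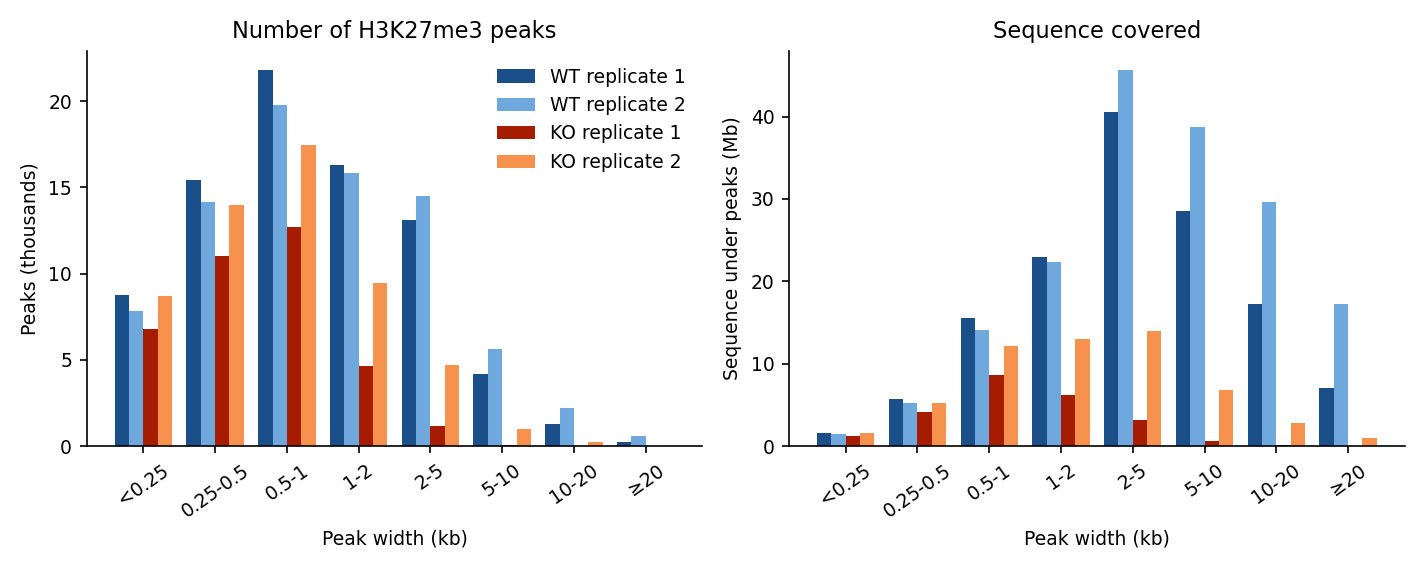
H3K27me3 peaks of the 4 libraries by peak width in kb. Bars on the left give the number of peaks (in units of 1000) and on the right the sequence under them in Mb, 1 bar per library; below 0.25 kb the libraries hold between 6796 and 8748 peaks each, while at 10 to 20 kb the WT libraries cover 17.3 and 29.6 Mb and the KO libraries 0.144 and 2.85 Mb.

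Chromosomal features set the KO lists apart and bear on what follows. Chromosome 5 held 3139 gained regions, 20.6 per Mb against 4.69 per Mb on the other autosomes, and 10.4% of its WT regions were kept, against 1.82% elsewhere. Its gained regions were spread along the chromosome but unevenly, with at least 40 in each full 10-Mb bin and 687 in the highest bin. The median over its full bins was 86.0, against a median of 18.0 in 224 such bins elsewhere. The only input sample of experiment 1 among the samples is labelled WT/WT, and the part of the input in these values was not tested. Chromosome X had 1413 and 1883 peaks in WT and 27 and 53 in KO, and chromosome Y had none in WT and 23 and 21 in KO. The line is described as male, and peak positions cannot settle whether the WT and KO libraries differ in more than genotype, so lost, kept and gained describe differences between the libraries labelled WT/WT and -/-. All values that follow are of autosomes.

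**Figure D2:**
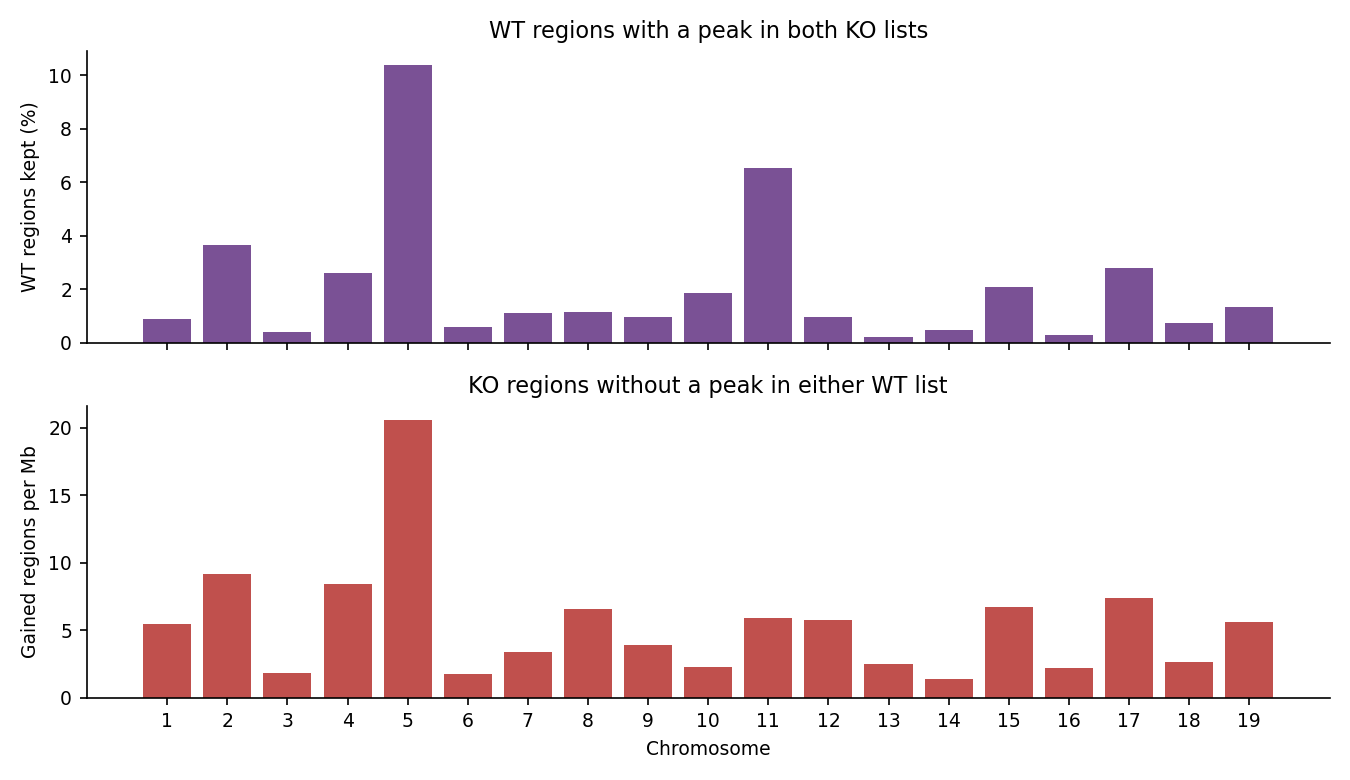
WT regions that kept a peak in both KO lists, in percent of the WT regions of each chromosome (top), and gained regions per Mb of each chromosome (bottom), for chromosomes 1 to 19. Chromosome 5 stands highest in both panels, with 10.4% kept and 20.6 gained regions per Mb, and chromosome 11 is next in the upper panel with 6.53%.

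Most WT regions had no KO peak. Of the WT regions 94.1% were lost (95% Wilson interval 93.9% to 94.3%, counting error only), 97.2% by KO replicate 1 alone and 94.5% by KO replicate 2 alone. Their median width was 2151 bp. By midpoint 7.12% of them lay at promoters, 2.17% in other exons, 30.8% in introns and 59.9% between genes, against 4.14%, 2.49%, 34.8% and 58.5% of 2393858 autosomal 1-kb bins. The share lost went from 95.2% of regions under 1 kb to 87.6% of those of at least 20 kb, which offer more room for an overlap by a single base. Of the bases in the widest class, 0.401% lay under KO replicate 1 peaks and 1.37% under KO replicate 2 peaks. Over all WT regions these shares were 0.652% and 2.04%, and over all autosomes 0.981% and 2.29%. KO peaks thus covered WT regions no more than the genome at large, and a kept region need not be a retained one. The 5 widest lost regions spanned 94192 to 156492 bp, and lay at Skap1, Mcf2l and Irf8 and between genes near Adra1b and E2f8.

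Kept regions were wider and richer in GC. Their median width was 2879 bp, and their median GC content over 500 bp was 48.4%, against 44.4% in lost regions and 41.8% in the genome bins. Of the bases of kept regions 79.5% and 91.8% lay under WT peaks and 18.1% and 40.9% under KO peaks. These regions are built from WT peaks, which sets the WT share high. In the 1053 KO regions with a peak in both WT lists, built from KO peaks, 41.2% and 50.6% of the bases lay under WT peaks and 42.5% and 95.5% under KO peaks. The median kept region was covered to 24.9% in KO replicate 1 and 65.0% in KO replicate 2. Of 159 CpG-rich WT regions, with a GC content above 50% and an observed over expected CpG ratio above 0.6, 138 or 86.8% were lost and 9 were kept. CpG-rich midpoints made up 0.346% of WT regions and 0.730% of bins. The widest kept region ran 96617 bp across Ttll6 and Hoxb13 (chr11:96005054-96101670), with 1.32% and 0.440% of it under KO peaks. None of these KO peaks lay in the promoter of Hoxb13, which is a lost promoter inside a kept region. The next, on chromosome 5 within Sorcs2, a sorting receptor of neurons, spanned 75630 bp and was covered to 3.26% in KO replicate 1 and 58.8% in KO replicate 2. At Pax3, a transcription factor of neural crest and muscle, the region spanned 61288 bp, of which 2.13% and 3.46% were under KO peaks.

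Gained regions were a different population. Their median width was 1376 bp, their midpoints lay a median of 104812 bp from the nearest start of a protein-coding gene (67169 bp for genome bins and 32725 bp for lost regions), and a median of 192465 bp from the nearest WT peak (98468 bp for bins outside WT peaks). Of their midpoints 61.5% were intergenic and 4.50% at promoters, near the 58.5% and 4.14% of the bins. They made up 89.5% of KO regions (Wilson 89.0% to 89.9%). Only 5.88% of the bases under KO replicate 1 peaks and 7.69% of those under KO replicate 2 peaks lay under a WT peak, while WT peaks together covered 8.07% of the autosomes. The widest gained region, 37298 bp on chromosome 7 (chr7:30917177-30954474), overlapped the zinc finger genes Zfp382 and Zfp146 and lay to 77.0% and 99.2% under KO peaks. Others of 25669 to 32908 bp lay near B230307C23Rik, Sdk1 and Sdk2 and within Ccdc60.

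A separate readout of these classes came from experiment 2, whose lists were made with another H3K27me3 antibody on another platform from the same C2 iMEFs. The midpoints of lost regions lay under peaks of that experiment's WT libraries in 4.38% and 3.11% of cases, and those of gained regions in 0.0998% and 0.0856%, against 0.621% and 0.468% of genome bins. Lost regions were thus covered above the level of the genome and gained regions below it. Gained regions exclude WT peaks by definition whereas the bins include them, so part of the lower gained share may be set by the definition. In the Ezh1 and Ezh2 pre-rescue conditions (1 library each), in which that gene was expressed before the endogenous Ezh2 was deleted, 65.0% and 23.2% of lost and 1.73% and 0.549% of gained midpoints were under peaks, against 10.5% and 3.34% of bins. The paper reports the other order for the mark itself, with less H3K27me3 globally and a weaker genomic distribution with Ezh1 than with Ezh2. The extent of called peaks is thus no ranking of these conditions by amount of the mark, and the reason was not tested. The KO lists of experiment 2 were short, with 29 and 382 autosomal peaks. Of the 382 peaks of replicate 2, 346 or 90.6% overlapped a WT peak of experiment 1, 209 overlapped a lost region, 71 a kept region and 4 a gained region. Of the 29 of replicate 1, all 29 overlapped a WT peak, 4 a kept region and none a gained region. Apart from those 4 peaks, the gained regions of experiment 1 were not called in the KO of experiment 2. The midpoints of gained regions lay under these KO peaks in 0% and 0.0143% of cases, against 0.00246% and 0.0204% of bins. At this list length their absence is near the background. Antibody, platform and list length differ together between the experiments and cannot be told apart.

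**Figure D3:**
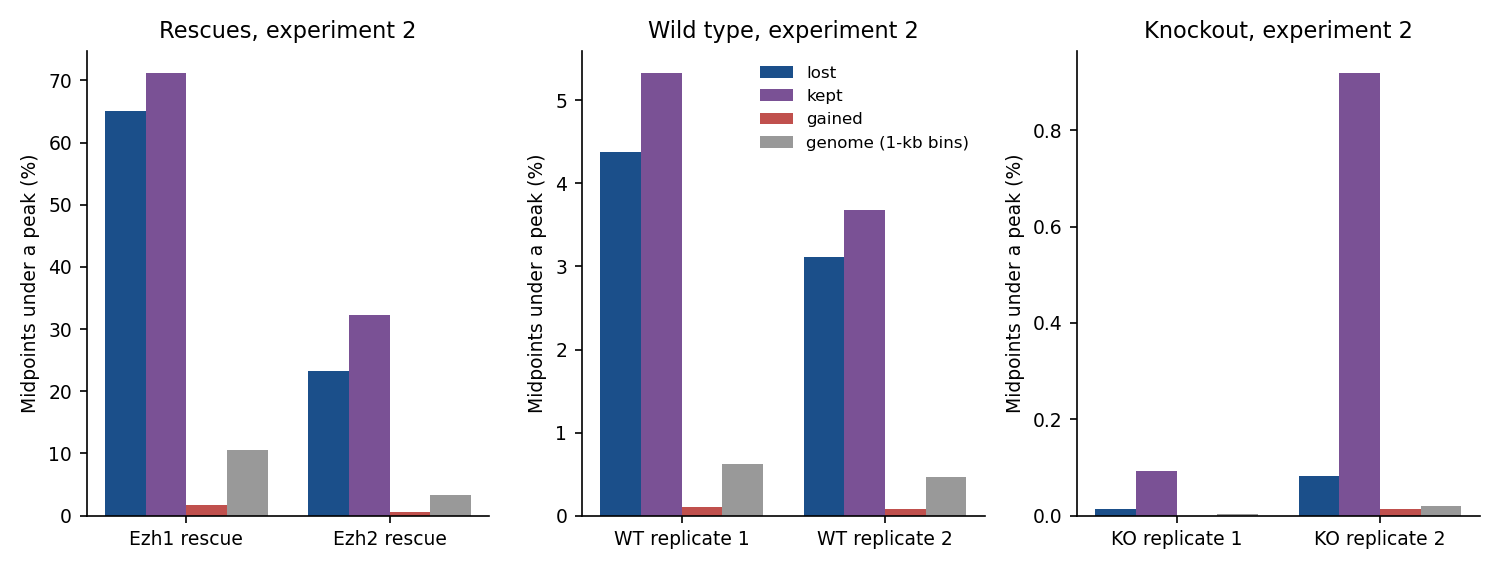
Share of region midpoints of experiment 1, in percent, that lie under a peak of each library of experiment 2, for lost, kept and gained regions and for autosomal 1-kb bins. Bars are single libraries and each panel has its own scale; gained regions lie below the genome bins in the rescue and WT panels and lost and kept regions above them.

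In WT the mark dipped at gene starts, and in KO little of it was called there. Of 21418 promoters, 4426 (20.7%) had a peak in both WT lists and are called marked. In the WT lists 11.7% and 12.8% of all genes were under a peak 1000 bp upstream of the start, 5.71% and 6.97% at the start itself and 10.4% and 11.6% 1000 bp downstream, a dip at the start in both libraries. In KO the shares were 0.994% and 1.90% upstream, 0.472% and 1.04% at the start and 1.76% and 2.46% downstream, and so in both KO libraries the highest of these values was downstream. Of the marked promoters 4083 (92.3%) were lost, 151 (3.41%) were kept and 192 were partly kept. Of the 151 kept promoters, 136 had bases under both a WT and a KO peak. Promoters with a peak in both KO lists numbered 995 (4.65% of all), of which 791 (3.69% of all) had none in WT and are called KO-only. In experiment 2, 91.5% of the lost and 5.56% of the KO-only promoters had a peak in the Ezh1 pre-rescue library, against 28.8% of all promoters. In its WT libraries the shares were 29.1% and 24.2% of lost and 0.379% in both for KO-only promoters, against 7.35% and 6.33% of all. Promoters without a peak in any of the 4 lists, which like KO-only promoters hold no marked gene, stood at 9.28% in the Ezh1 pre-rescue library and at 1.41% and 1.48% in WT, closer to the KO-only promoters than all genes are.

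**Figure D4:**
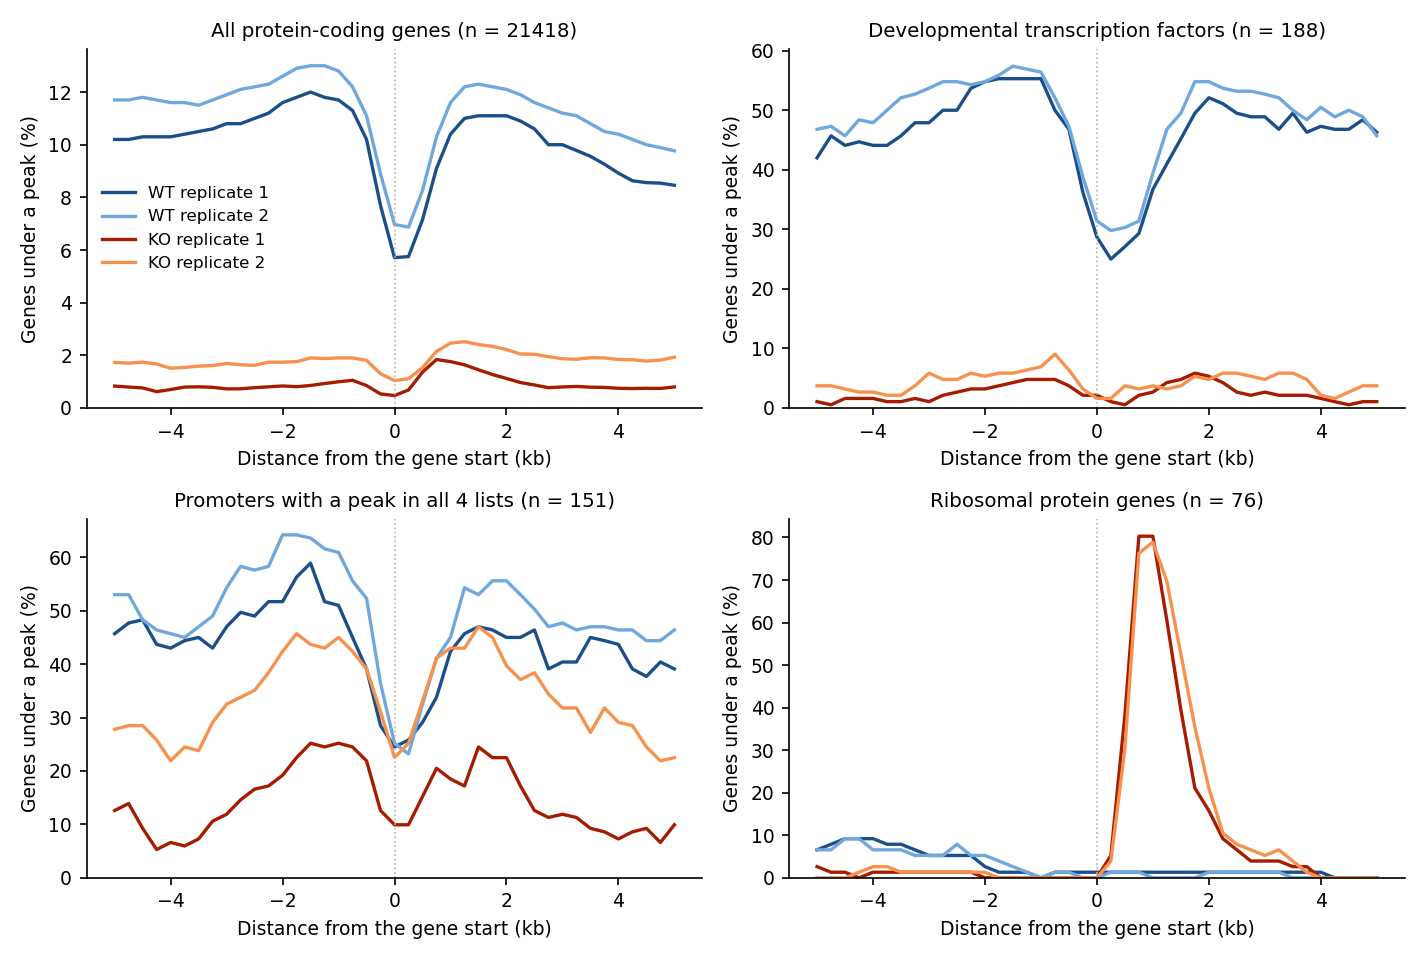
Share of genes, in percent, under a peak at each distance in kb from the gene start (negative values upstream), by library, for all protein-coding genes, developmental transcription factors, genes with a promoter peak in all 4 lists and ribosomal protein genes. WT lines dip at the start in the first 3 panels; in the last, 80.3% and 78.9% of genes are under a KO peak 1000 bp downstream and 1.32% and 0% under a WT peak.

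The promoters most fully covered in WT and without any KO peak belonged to genes of many lineages. Many such promoters were covered in full, and with ties ordered by the width of the WT region the first 10 were Evx1, Hoxb13, Skap1, Ngfr, Lgr6, Hydin, Iqca, Gm960, Olfr1410 and Olfr1411, each covered to 100% in both WT lists and to 0 in both KO lists. Evx1 and Hoxb13 are homeobox genes, Skap1 encodes an adaptor of T cells, Ngfr the low-affinity neurotrophin receptor and Hydin a protein of motile cilia. In experiment 2 the same 10 promoters were covered to between 49.3% (Gm960) and 100% (Hoxb13, Iqca and Olfr1410) in the Ezh2 pre-rescue library. In its WT libraries Evx1 had no peak in either list, and the others had one in at least 1. Ngfr was covered to 23.0% and 41.0% in those WT lists, and it had a peak in both KO lists of experiment 2 as well, over 55.0% of the promoter in replicate 2, where the other 9 had none.

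Developmental transcription factors had a higher share of marked promoters than all genes together, and a lower share of these was lost. In 12 lists of such factors (among them HOX, Pax, Sox, T-box, forkhead, LIM homeobox, Irx, Nkx, Dlx and Msx, Gata and proneural bHLH genes), 124 of 188 promoters (66.0%) were marked, of which 91 (73.4%) were lost, 20 (16.1%) kept and 13 partly kept. Over all marked promoters 92.3% were lost and 3.41% kept. The share lost in these lists was 75.4% without chromosome 5, 86.3% with only peaks of at least 1000 bp and 78.2% and 79.0% with a single KO list, below the share over all marked promoters in each case (92.7%, 96.5%, 92.9% and 96.0%). At each of the 20 kept promoters some bases were under both WT and KO peaks. Only Pax9, a factor of pharyngeal and tooth development, was KO-only, covered to 9.80% and 21.7% in KO.

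Among HOX genes, which set position along the body axis, 24 of 39 were marked (61.5%, against 20.7% of all promoters). Of these 18 were lost (75.0%, against 92.3% of all marked promoters). Hoxd10, Hoxd12, Hoxa10, Hoxa11, Hoxb1 and Hoxc11 were covered to 100% in both WT lists and to 0 in both KO lists. Hoxa9 and Hoxd11 were kept. Hoxa9 (chr6:52173099-52181088, minus strand) was covered to 100% in both WT lists, 71.4% in KO replicate 1 and 100% in KO replicate 2, while its neighbours Hoxa10 and Hoxa7 had no KO peak. Hoxd11 was covered to 100% in both WT lists and to 6.12% and 5.92% in KO, and Hoxa13, Hoxb5, Hoxb6 and Hoxc12 had a peak in 1 KO list only, over 5.54% to 18.5% of the promoter.

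LIM homeobox genes, which specify neurons, limb and kidney, had the highest share of kept members of the 12 lists. The 9 marked members were 75.0% of the list, against 20.7% of all promoters. Of these 4 were lost (44.4%, against 92.3% of all marked promoters), Lhx2 and Lhx3 among them, and Lhx1, Lhx5, Lhx8, Lmx1a and Lmx1b were kept. At Lhx1, a factor of head and kidney formation (chr11:84331479-84338923, minus strand), peaks covered 93.9% and 97.6% of the promoter in WT and 77.3% and 97.0% in KO. The ranges of the genotypes overlap there, and the KO replicate 2 value lies between the WT values. At Lmx1a, needed for midbrain dopaminergic neurons, the values were 62.8% and 77.5% in WT and 39.6% and 16.5% in KO, with no overlap.

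Of 14 Nkx genes 13 were marked (92.9%, against 20.7% of all promoters), with 8 lost (61.5%, against 92.3% of all marked promoters) and 4 kept. Nkx2-5, the cardiac factor, was covered to 84.9% and 87.9% in WT and to 0 in KO. Nkx2-3, a factor of gut and spleen (chr19:43686815-43690381), was covered to 90.5% and 91.4% in WT and 76.0% and 71.4% in KO, so the KO values lie below the WT values by more than either spread. Kept too were Nkx3-2, Nkx6-1 and Nkx6-2, at 13.4% to 33.8% in KO. Among forkhead genes 14 of 20 marked members were lost, Foxf1a (77.5% and 77.3% in WT) among them. Foxd2, Foxd3 and Foxb2 were among the kept members. At Foxd3, a factor of neural crest, WT peaks covered 32.1% and 42.7% and KO peaks 23.4% and 44.3%, so the genotypes overlap there.

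Msx1, a factor of limb and craniofacial development on chromosome 5, was covered to 78.3% and 78.2% in WT and 46.9% and 47.5% in KO. Pax3 (86.9% and 100% against 26.1% and 42.4%) and Six2 of nephron progenitors (68.3% and 69.8% against 27.9% and 27.4%) were kept as well. At these genes the KO coverage was less than the WT coverage in each library. Lhx5, Nkx3-2, Nkx6-1 and Msx1 lie on chromosome 5, where KO peaks were dense, and the other kept factors do not. The Sox, T-box, Irx and proneural bHLH lists had no kept member, with 10 of 12, 9 of 10, 3 of 3 and 10 of 11 marked members lost. Over all marked promoters 92.3% were lost and 3.41% kept, and these lists are small.

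In most lists of signalling molecules and of other lineages the share of marked promoters lost was near the 92.3% of all marked promoters. In the WNT, FGF and BMP lists 37 of 70 promoters were marked and 34 (91.9%) of these lost, Wnt8a and Wnt9b among them, while Wnt3 was kept at 12.8% and 21.5%. Of 24 blood cell genes 17 were marked (70.8%, against 20.7% of all promoters) and all 17 lost. Cd3d and Cd3g of the T cell receptor complex, Pax5 and Irf4 of B cells and Lyz2 of macrophages were covered to 100% in both WT lists. Of 31 marked interleukin and receptor genes 30 (96.8%) were lost, as were all 11 marked glutamate and GABA receptor genes. Of the marked solute carriers 103 of 108 (95.4%) were lost, and of the marked potassium channels 40 of 45 (88.9%). Below the 92.3% of all marked promoters lay the ephrins and ephrin receptors, with 8 of 11 lost (72.7%) and 3 partly kept, neuronal genes with 11 of 13 (84.6%) and, within the pooled ligands, BMP and GDF genes with 12 of 14 (85.7%). These lists are small, and a few genes account for the difference. Of 41 collagen genes 17 (41.5%) were marked, against 20.7% of all promoters, and 16 of these were lost.

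Polycomb genes themselves carried the mark at 7 of 28 promoters (20.7% of all promoters were marked), and all 7 were lost, against 92.3% of all marked promoters, both near the background. Among them were the PRC1 members Cbx2, Cbx8, Bmi1, Pcgf3 and Rybp and the PRC2 accessory gene Phf19, the last covered to 62.8% and 73.1% in WT. The promoters of Ezh2, Ezh1, Eed and Suz12 had no peak in any of the 4 lists, so these lists do not check the genotype of the libraries. Of 15 fibroblast genes, none was marked, with Col1a1, Col1a2, Col3a1, Fn1 and Twist1 without a peak in any list. Vim, the intermediate filament of mesenchymal cells, was KO-only at 34.0% and 25.5%, as was Prrx1 at 11.8% and 6.68%.

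Keratin genes, which encode the intermediate filaments of epithelia and hair, combined a high share of marked promoters with many kept ones. Of 46 promoters 37 were marked (80.4%, against 20.7% of all promoters). Of these 17 were lost (45.9%), 13 kept and 7 partly kept, against the 92.3% lost and 3.41% kept of all marked promoters. The type I cluster on chromosome 11 had 8 lost and 10 kept among 18 marked promoters, and the type II cluster on chromosome 15 had 9 lost, 3 kept and 7 partly kept among 19. Kept promoters are not separate cases, since those of Krt32, Krt35 and Krt36 lay in a single KO region of 38131 bp. At Krt36 peaks covered 3.68% in KO replicate 1 and 100% in KO replicate 2. The 7 partly kept promoters had a peak in KO replicate 2 only. On chromosome 11 lost and kept genes lay in blocks, while on chromosome 15 the classes were mixed along the cluster. Krt24, Krt25, Krt26, Krt27 and Krt28 were covered to between 54.2% and 100% in WT and to 0 in KO, while Krt14, Krt15, Krt16 and Krt17 of basal and stressed epidermis were covered in all lists. Krt16 stood at 6.14% and 3.74% in WT and 31.2% and 61.5% in KO, higher in both KO libraries. At Krt17 the values were 68.6% and 72.9% in WT and 37.8% and 100% in KO, so KO replicate 2 lay above both WT libraries and KO replicate 1 below them. At Krt15 they were 45.6% and 74.7% in WT and 32.9% and 83.0% in KO, again with the KO libraries on either side of WT. Of all keratin promoters 15 keratin promoters had a peak in KO replicate 1 and 23 in KO replicate 2.

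Imprinted genes, expressed from 1 parental allele and often methylated on the other, were marked at 11 of 32 promoters (34.4%, against 20.7% of all promoters). Of these 3 were partly kept and 4 lost (36.4%, against 92.3% of all marked promoters), the latter being Kcnq1, Ascl2, Slc22a2 and Slc22a3. Phlda2, Dio3, Grb10 and Plagl1 were kept. At Plagl1, a zinc finger gene of fetal growth, peaks covered 58.9% and 85.7% in WT and 55.2% and 36.5% in KO. Nnat and Impact were KO-only, Nnat at 68.5% and 86.7% and Impact at 44.9% and 70.2% of the promoter, and the 6 imprinted promoters with a peak in both KO lists were 18.8% of the list, against 4.65% of all promoters.

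Ribosomal protein genes had peaks in KO and not in WT. They encode the components of the cytoplasmic ribosome. Of 76 such genes 63 (82.9%) were KO-only, against 3.69% of all promoters, and 69 (90.8%) had a peak in both KO lists, against 4.65%. In the single lists 71 and 70 had a promoter peak in KO and 6 and 7 in WT. At Rpl3 (chr15:79908211-79913836, minus strand) coverage was 0 in both WT lists and 46.4% and 47.3% in KO. Rps12 (chr10:23504990-23507015, minus strand) stood at 0 in WT and 43.3% and 43.4% in KO, and Rpl23 at 0 and at 37.5% and 37.3%. The KO libraries gave nearly equal values at these genes, and the genotypes did not overlap.

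Most of these peaks lay inside the genes, past the start. In KO replicate 1 they began at a median of 511 bp and ended at 1400 bp downstream of the start, and in KO replicate 2 at 562 and 1635 bp, and 68 of 69 began downstream in each library. Wholly within the gene were 65 of the 69 in KO replicate 1 and 62 in KO replicate 2, and 1 peak, at the short gene Rpl36 in KO replicate 2, lay wholly past its end. The sequences of Rpl3, Rps12 and Rpl23 shown above come from the middle of these peaks, 1339, 1419 and 1550 bp past the start. Exons and introns of the genes were covered alike, 22.0% and 19.7% in KO replicate 1 and 22.9% and 21.3% in KO replicate 2, against 0.297% and 1.91% and 0.256% and 0.927% in the WT libraries. At the start itself no ribosomal protein gene was under a KO peak.

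Among the members that were not KO-only, Rpl5, Rpl26, Rpl38 and Rps26 had peaks in all 4 lists, but none had a base under both a WT and a KO peak. At Rpl26, for example, WT peaks covered 10.4% and 22.1% of the promoter and KO peaks 21.5% and 31.2% of it at other positions. Rpl3l, the paralog of striated muscle, was the one lost member, at 69.8% and 39.6% in WT and 0 in KO. Rpl10l, the paralog of testis, had a peak in KO replicate 2 only, at 13.4%, and Rps27l, Rpl13a and Rpl18 had none in any list. Without chromosome 5, 59 of 71 were KO-only. In experiment 2 none of the 76 had a promoter peak in either KO list and 2 and 0 had one in the WT lists, and 0 and 6 of the 188 developmental factors had one in the KO lists. Over all promoters the shares in those KO lists were 0.0420% and 0.392%, so at this list length an absence at 76 genes is near the background.

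Lists of translation factor, splicing factor and cell cycle genes also had a share of KO-only promoters above the 3.69% of all promoters. Lists of other functions lay above it too, with few genes each. Among them were fibroblast genes (2 of 15, 13.3%), cadherins (3 of 23, 13.0%), CDK inhibitor and tumor suppressor genes (2 of 18, 11.1%) and glutamate and GABA receptors (4 of 43, 9.30%). Of 53 translation factor genes 13 were KO-only (24.5%), such as Eif1 (0 in WT, 31.2% and 32.4% in KO), Eif4a2 (0, then 34.8% and 30.2%) and Eef2 (0, then 19.9% and 25.1%). Of 60 splicing factor genes 13 were KO-only (21.7%), with Hnrnpa1 at 49.7% and 46.3% and Srsf2 at 30.0% and 31.2% in KO. Of 36 cell cycle genes 6 (16.7%) were, namely Pcna, Top2a, Mki67, Ccnb1, Ccna2 and Mcm7, the first at 18.0% and 14.6%. Of the 5 marked cell cycle genes 4 were lost (80.0%, against 92.3% of all marked promoters) and 1, Cdk4, was kept. Together the ribosomal, translation and splicing lists held 89 of the 791 KO-only promoters, 11.3%. In the mitochondrial ribosome, proteasome and respiratory chain lists, 12 of 195 (6.15%) were KO-only, nearer to the 3.69% of all promoters, and none of 65 replication-dependent histone genes was.

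The KO-only promoters with the highest coverage belonged to zinc finger and predicted genes. By the rule for named genes they were Zfp873, Zfp850, Zfp950, Zfp125, Gm10033, Gm10311, Gm17655, Gm4924, Gm7120 and Gm8290, covered to between 74.3% and 100% in KO and to 0 in WT. In the list of Zfp genes, many of which carry KRAB domains and bind transposons, 23 of 353 (6.52%) were KO-only, against 3.69% of all promoters, and 31 of 32 marked members were lost. Calls at such families of near-identical copies are uncertain, since the methods describe uniquely mapped SOLiD reads in one place and a single reported location for reads with several hits in another, and the part of mapping in these values was not tested. Cytochrome P450 genes had 14 of 90 KO-only (15.6%), and 9 of 82 without chromosome 5. Of 1081 olfactory receptor genes 37 (3.42%) were KO-only, near the share of all promoters, and 75 (6.94%) were marked, against 20.7% of all, of which 68 (90.7%) were lost.

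**Figure D5:**
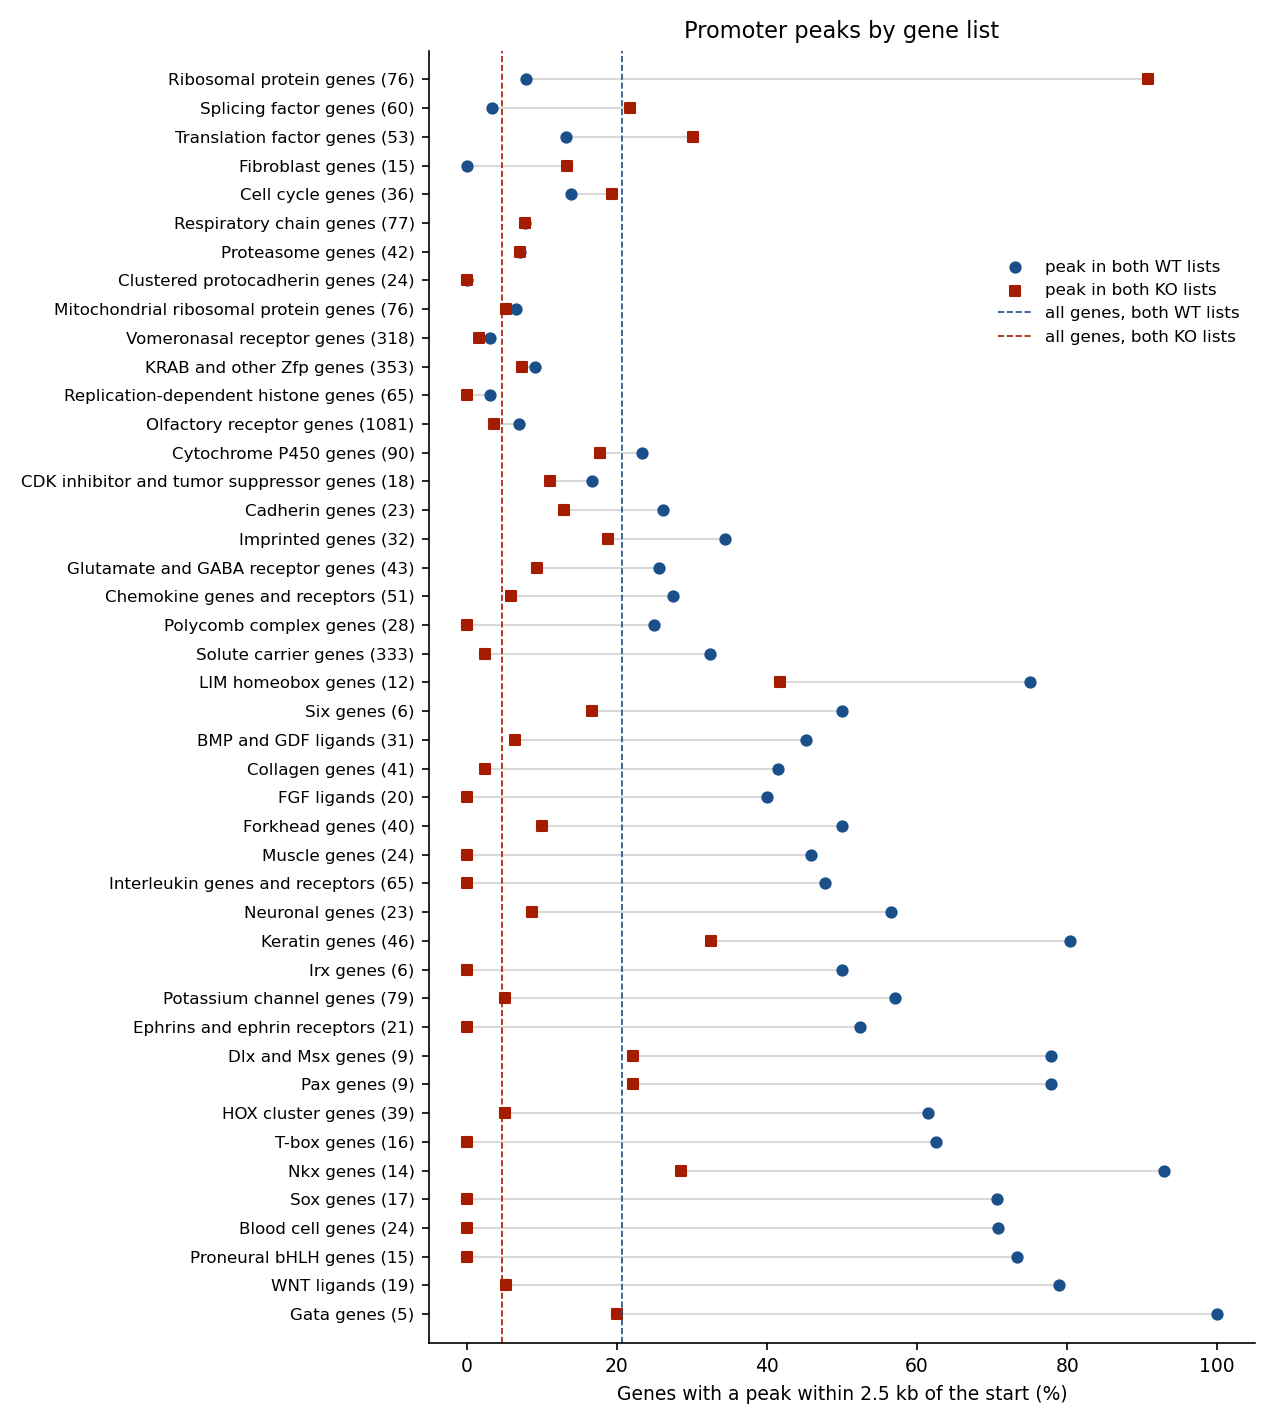
Share of the genes of each of 44 lists, in percent, with a promoter peak in both WT lists (circles) and in both KO lists (squares), the measured genes of each being counted in brackets, and dashed lines at the share of all autosomal protein-coding genes (20.7% and 4.65%). Ribosomal protein genes stand at 7.89% in WT and 90.8% in KO, below the line of all genes in WT and above it in KO. Nkx genes, the second highest of the developmental lists in WT, stand at 92.9% and 28.6%, above both lines.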

How the data were processed

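H3K27me3 was measured by ChIP-seq in 2 WT and 2 KO libraries of C2 iMEFs. The authors digested chromatin with micrococcal nuclease, aligned SOLiD reads to mm9, removed duplicates, down-sampled to a common depth, describe a coefficient for the knockout based on the immunoprecipitated DNA, and called peaks per sample with MACS2 against input. The sources used here leave unsaid whether the scaled reads went into peak calling. HOMER 3.17, MACS2 2.0.10, SAMtools, Bowtie2 2.1.0 and Bowtie 0.12.8 are listed in the submitters' processing notes. The deposited files hold chromosome, start and end of each peak and no score, so the values are positions in bases of mm9, all within the NCBIM37 chromosomes.

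Here peaks of a list that overlapped were joined, overlap meant at least 1 bp, and positions are given 1-based. Gene starts, exons and gene types were taken from GENCODE's mm9 annotation, and a symbol with several gene identifiers counted once in the gene lists. Class and base composition (500 bp) were taken at region midpoints, with promoter before exon before intron. Of 3486 list members, 3475 were matched. Libraries were compared by an exact permutation test. Regions and genes are not replicates, so their shares carry no p-value. Wilson intervals (95%) cover counting error only.

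The members and gene lists were chosen with earlier results of these data known. Genes were named by coverage in the lower of the lists of a genotype, with ties ordered by region width and then by symbol: 10 promoters each of the lost, kept and KO-only sets, up to 3 lost and up to 3 kept or KO-only per list, the 5 widest regions of each class, and Ezh1, Ezh2, Eed and Suz12. Genes named beyond it, in the HOX, LIM homeobox, Nkx, forkhead, keratin, imprinted, Polycomb, blood, ribosomal, translation, splicing and cell cycle lists, were chosen after their values were seen. Some genes that the rule would name are not reported here. Overlap code was tested on simulated data, with 0 mismatches in 2322 comparisons with brute force. Alternatives were other chromosome sets, minimum peak widths, joining, overlaps, promoter windows and gene sets, and leaving out each library. Python 3.11.15, NumPy 2.4.6, SciPy 1.17.1 and matplotlib 3.10.9 were used.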

Additional observations from a re-analysis of the deposited data

Results flagged for a closer look

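Peaks on chromosome Y lie outside the autosomes used above. KO replicate 1 had 23 and KO replicate 2 had 21, while both WT lists of experiment 1 and all 6 lists of experiment 2 had 0. They drew attention because they are a signal in data not used in the comparisons and above the level in the control libraries. The cause was not tested.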

How the results depend on the processing

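Of 102 values recomputed under an alternative, 60 stayed the same and 42 moved. Values that stayed lay within the spread between libraries, within 1.5 times a count or, for covered length and median peak width, with KO below WT. A reversal could be called only for covered length and median peak width, and none occurred there. The ribosomal protein, developmental factor and peak width alternatives were chosen after seeing the data. With peaks of at least 1000 bp the lost share was 96.8%, the gained share 90.5%, the marked promoters lost 96.5%, those of developmental factors 86.3%, KO-only promoters 207 and KO-only ribosomal protein genes 22; with at least 550 bp the gained share was 90.3%, the lost promoters 94.8% and 81.8%, and KO-only promoters 423. Joining peaks under 1000 bp apart gave a gained share of 88.8%, and without chromosome 5 it was 90.1%, with 75.4% of developmental factor promoters lost. Requiring at least 50% of a region to be covered gave 97.5% lost and 94.1% gained, requiring a reproducible region 97.6% and 93.4%, and regions in either replicate 92.5% gained. Promoters of 1000 bp gave 95.2% lost (81.6% of developmental factors) and 478 KO-only, those of 5000 bp 89.4% (67.2%) lost, and all annotated genes 1474 KO-only. Classed by any overlap, 12.5% of lost, 16.6% of kept and 5.58% of gained regions were at promoters, and by their longest single peak their median widths were 1983, 2670 and 1248 bp. Leaving out a library gave a KO share of covered length of 15.5% to 36.1%, a lost share of 94.5% to 97.2%, a gained share of 91.2% to 93.3%, 4426 to 4944 marked promoters, of which 91.8% to 96.0% were lost, 814 to 1379 KO-only promoters (1379 without KO replicate 1 and 1310 without KO replicate 2), 63 to 65 KO-only ribosomal protein genes, a KO share of median width of 57.8% to 67.9% and 72.7% to 79.0% lost for developmental factors. Causes were not tested, beyond that a single list needs no second peak. Read depth behind the peaks is unknown, which limits every share here.

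With the replicate block, taking KO over WT within each replicate number, the KO share of covered length was 24.9%, against 25.8% without it. The libraries are too few for a test whose call could change. Samples of the same number did not deviate together (r = 0.010 over 24712 bins of 100 kb, 2 pairs), so they share only a number.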
